A study of Mus musculus with 10 samples.

Results

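Long chromatin loops, those whose anchors start 500 kb or more apart, were compared across 5 groups of mouse bone marrow-derived macrophages profiled by Hi-C. They were taken from the loop list deposited for each group as every autosomal line whose second anchor starts at least 500 kb after the first. The M0[CTR] list held 6003 long loops among 53273 autosomal loops, the M2[IL-4] list 6452 among 58117 and the M2p[pIL-4] list 7101 among 67532. The IFNG list held 6620 among 54869 and the pIL-4 + IFNG list 7178 among 66827. Over the 5 lists these were 22770 distinct pairs of 10 kb bins, out of 152753 pairs of any span. The cells came from wild type female C57BL/6 mice aged 2 to 3 months and were grown with M-CSF at 20 ng/ml to day 6 of differentiation, so all groups share that treatment. M0[CTR] macrophages got no cytokine beyond this. M2[IL-4] stands for a 24 h exposure to IL-4 at 20 ng/ml, and M2p[pIL-4] for the same exposure with the IL-4 washed out and 24 h of rest. IFNG stands for interferon gamma at 20 ng/ml during 3 h with no earlier IL-4, and pIL-4 + IFNG for the same IFNG pulse given at the end of IL-4, washout and rest. Each group had 2 samples, 10 in all, but the lists hold 1 merged value per group. No difference between groups therefore has a replicate check, and every interval given covers counting error only.

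Hi-C joins and sequences pieces of DNA that lie close together in the nucleus, so a pair of bins with many contacts marks loci that are often near each other. Loops of this kind are known to form as cohesin extrudes DNA until it meets the factor CTCF, mostly at CTCF motifs that face each other, and distant enhancers can reach a promoter in the same way. Other long contacts are known between Polycomb-silenced regions and between clusters of like genes. Hi-C does not measure expression, so the macrophage label could not be checked by marker levels, and only the loops at marker genes were counted.

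The sequences most telling for long loops are the CTCF matches inside the anchors of the strongest ones, since orientation is what the anchors of a loop are known for. The CTCF core consensus of 14 letters was searched without mismatch on both strands, and 2.53% of the autosomal 10 kb bins held it. Of the 10 strongest long loops called in all 5 lists, 3 had a plus-strand match in the left anchor and a minus-strand match in the right anchor, so that the matches faced each other. These were the loops from beside Enc1 on chromosome 13, from Acoxl to beside Spdye4c on chromosome 2, and from the Bcl6 transcription start site (TSS) on chromosome 16. Each match is shown in the direction of its own strand, with the 14 core letters in capitals and 8 flanking bases on either side, read from the RefSeq GRCm38 genome. A match is a description of the letters and not a bound site.
Enc1 loop, left anchor, chr13:97235214-97235243, plus strand: cactgcagCCAGCAGAGGGCACacttgctt
Enc1 loop, right anchor, chr13:97938128-97938157, minus strand: cagtaccaCCACCAGGTGGCGCatgaagtc
Enc1 loop, right anchor, chr13:97939063-97939092, minus strand: acgcttcaCCACCAGATGGCGCccgtgagc
Acoxl to Spdye4c loop, left anchor, chr2:127889571-127889600, plus strand: aggaccaaCCACCAGAGGGCAGcaaagacc
Acoxl to Spdye4c loop, right anchor, chr2:128573397-128573426, minus strand: accattggCCAGTAGGTGGCAGaagctgtc
Bcl6 loop, left anchor, chr16:23984355-23984384, plus strand: gtgacctaCCACTAGGTGGCGGactcagtc
Bcl6 loop, right anchor, chr16:25064740-25064769, minus strand: gatgtcatCCAGCAGAGGGCGCtcttggag

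**Figure D1:**
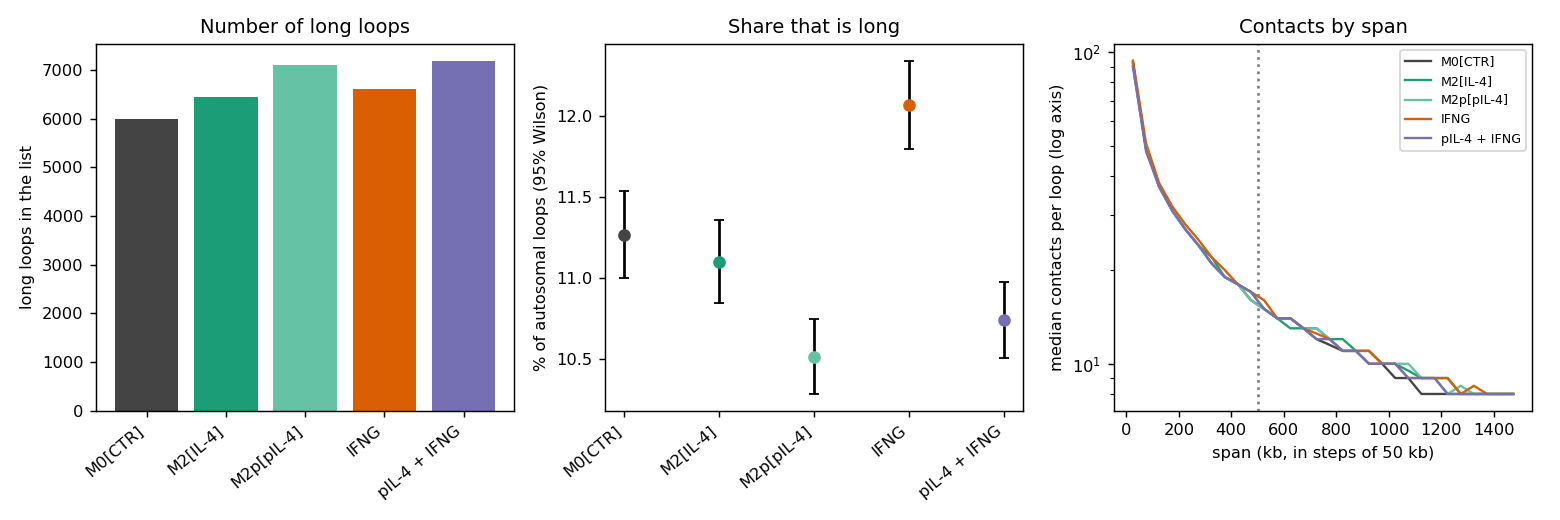
Left, bars give the number of long loops in each of the 5 lists. Middle, points give the share of autosomal loops that is long, in percent with 95% Wilson intervals, on an axis that does not start at 0. Right, lines give the median contacts per loop in 50 kb steps of span on a log axis, with a dotted line at 500 kb. The share was highest in IFNG at 12.1% and lowest in M2p[pIL-4] at 10.5%, and the 5 contact curves ran together.

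Every treated list held more long loops than M0[CTR], and the IFNG list was the only list in which they made up a larger share than in M0[CTR]. Long loops made up 11.3% of the M0[CTR] list (95% Wilson interval 11 to 11.5), 11.1% of M2[IL-4] (10.8 to 11.4), 10.5% of M2p[pIL-4] (10.3 to 10.7), 12.1% of IFNG (11.8 to 12.3) and 10.7% of pIL-4 + IFNG (10.5 to 11). The numbers of long loops were 1.07 (M2[IL-4]), 1.18 (M2p[pIL-4]), 1.10 (IFNG) and 1.2 (pIL-4 + IFNG) times that of M0[CTR]. The whole lists were 1.09, 1.27, 1.03 and 1.25 times as long as the M0[CTR] list, so the number of long loops moved with the length of the list in all groups but IFNG, and the part of list length in these numbers was not tested. With the same number of loops taken from each list, strongest first, the ratio was 0.975 for M2p[pIL-4] and 0.986 for pIL-4 + IFNG, on the other side of 1, while it was 1.01 for M2[IL-4] and 1.08 for IFNG.

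A long loop was a sparse measurement. The median long loop had 12 contacts in M0[CTR] and pIL-4 + IFNG and 13 in the other lists, against 33 or 34 for loops of 20 to 490 kb. Long loops together carried 77837 contacts (M0[CTR]), 85867 (M2[IL-4]), 94935 (M2p[pIL-4]), 88612 (IFNG) and 94843 (pIL-4 + IFNG), or 3.41 to 3.95% of the contacts at all autosomal loops. Just inside the 500 kb limit, loops of 500 to 590 kb numbered 1812 to 2231 per list with a median of 15 contacts. Just outside it, loops of 400 to 490 kb numbered 3287 to 4005 with a median of 17 or 18. The longest class, 1250 to 1490 kb, held 329 to 382 loops per list with a median of 8 contacts. All 5 lists ended at 1490 kb, with 61 to 68 loops per list from 1450 kb on. Whether longer loops were left out of the lists is not known. When touching bin pairs were merged, the long loops formed 3320 to 3876 groups per list, of which 78.9 to 80.1% were single pairs and the largest held 160 to 223 pairs.

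Long loops were concentrated in few places. Chromosome 13 held most, 705 to 804 per list or 62.7 per 10 Mb on average, where they were 24.4 to 30.5% of the loops. Chromosome 7 held fewest, 68 to 97 per list or 5.80 per 10 Mb, where they were 1.91 to 2.70% of the loops. Each loop was placed in a window of 1 Mb by its midpoint. Of 2473 such autosomal windows, 1258 (50.9%) held a long loop in any list. The 10 fullest windows held 20.0% of all long loop calls and the 50 fullest held 49.4%, while the 10 and 50 windows fullest of 20 to 490 kb loops held 4.59% and 16.7% of those.

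The fullest window, chr2:128000001-129000000, held 180, 194, 185, 179 and 192 long loops in M0[CTR], M2[IL-4], M2p[pIL-4], IFNG and pIL-4 + IFNG, and this order of lists is kept for every series of 5 values that follows. It contains 9 protein-coding TSSs, among them those of Bcl2l11, a pro-apoptotic BH3-only gene, and Mertk, a receptor by which macrophages take up dying cells. Genes are named here for lying in a window, and need not lie near an anchor. The window chr9:61000001-62000000 with Tle3, a Groucho-family corepressor, held 139, 178, 187, 183 and 229, lowest in M0[CTR] and highest in pIL-4 + IFNG. The window chr16:92000001-93000000 held 167, 169, 182, 170 and 175. Among its 10 protein-coding TSSs are those of Clic6 and Runx1, a transcription factor of blood cell development. Within 100 kb of the Runx1 TSS lay 7, 4, 5, 5 and 19 long loops, against 198 to 230 near Clic6. The window chr4:95000001-96000000, with the TSSs of Fggy, Hook1 and Jun, an AP-1 subunit, held 126, 117, 131, 150 and 162, so both lists with IFNG were above the other three.

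Long loops spanned gene-poor DNA. Between their anchors lay 3.74 to 3.91 protein-coding TSSs per Mb, against 8.45 per Mb over the autosomes and 10.2 to 10.7 per Mb inside loops of 20 to 490 kb. The median long loop crossed 1 such TSS, and 8.36 to 9.72% of long loops crossed none.

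**Figure D2:**
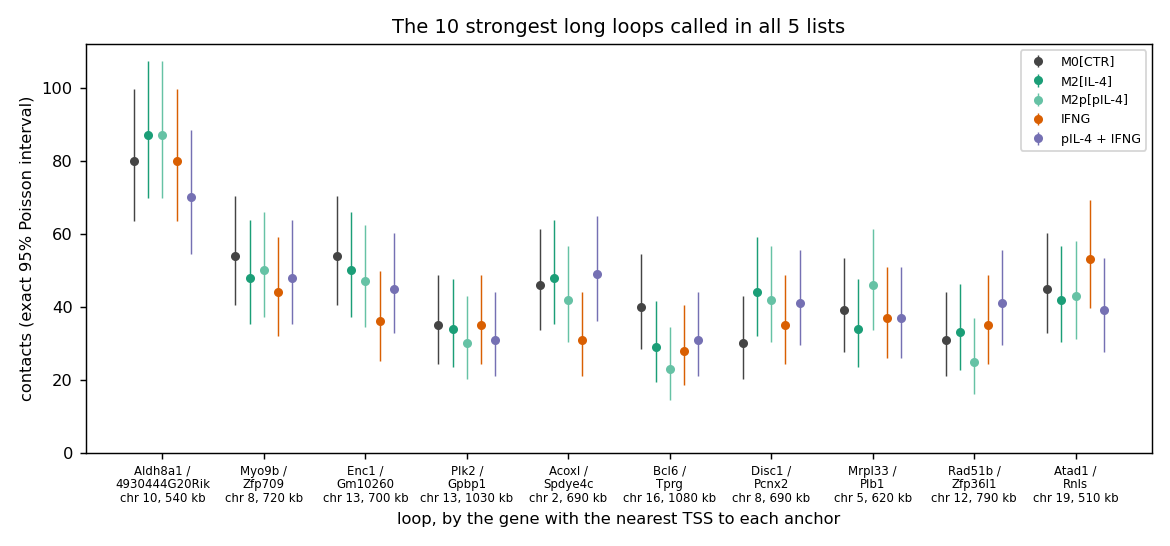
Contacts of the 10 strongest long loops called in all 5 lists, named by the gene with the nearest TSS to each anchor, with points for the 5 lists and exact 95% Poisson intervals. The loop near Aldh8a1 stood highest in every list, at 70 to 87 contacts, and the intervals of the 5 lists overlapped at each loop.

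Among the long loops called in all 5 lists, the strongest had similar contacts in each. Strength was taken as the contacts summed over the 5 lists, divided by the sum of the lists' median contacts at the same span. Each median was over all loops of a list, also those not called in other lists. The first by this measure joined chr10:21460001-21470000 to chr10:22000001-22010000 with 80, 87, 87, 80 and 70 contacts (exact 95% Poisson interval 63.4 to 99.6 in M0[CTR] and 54.6 to 88.4 in pIL-4 + IFNG), 5.39 times the summed medians at its span. Neither anchor overlapped a protein-coding gene, and the nearest TSSs were those of Aldh8a1 at 82.7 kb and 4930444G20Rik at 58.1 kb. The second joined chr8:71130001-71140000 to chr8:71850001-71860000 with 54, 48, 50, 44 and 48 contacts. Its anchors had 4816 different words of 31 bases in common, the most of any long loop called in all 5 lists, so reads of these anchors may not have been told apart and its contacts are uncertain.

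The loop from chr13:97230001-97240000, 1.10 kb from the TSS of Enc1, an actin-binding kelch protein, to chr13:97930001-97940000 inside Arhgef28 had 54, 50, 47, 36 and 45 contacts, and its anchors had no 31-base word in common. The loop from chr13:110380001-110390000, 5.05 kb from Plk2, a polo-like kinase, spanned 1030 kb with 35, 34, 30, 35 and 31 contacts. The loop from the Bcl6 TSS bin, chr16:23980001-23990000, spanned 1080 kb to chr16:25060001-25070000 with 40, 29, 23, 28 and 31 contacts. Bcl6 encodes a zinc finger repressor that restrains inflammatory gene programs in macrophages. Its loop was highest in M0[CTR] and lowest in M2p[pIL-4], with overlapping intervals.

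The loop of 790 kb between Rad51b, a homologous recombination gene, and a bin 27.0 kb from Zfp36l1, which encodes an RNA-decay protein, had 31, 33, 25, 35 and 41 contacts. The loop of 690 kb from Acoxl to chr2:128570001-128580000 had 46, 48, 42, 31 and 49, lowest in IFNG. The loop of 690 kb between the bodies of Disc1 and Pcnx2 had 30, 44, 42, 35 and 41, but with the highest contacts within 25 kb these were 44, 44, 42, 39 and 41 and M0[CTR] was no longer low. The other strong loops lay near Mrpl33 and Plb1 on chromosome 5 (34 to 46 contacts) and between Atad1 and Rnls on chromosome 19 (39 to 53 contacts).

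The longest loop called in all 5 lists joined the replication-dependent histone genes of chromosome 13, at the span where the lists end. It ran 1490 kb from the bin of Hist1h4i, Hist1h2ag and Hist1h2bj at chr13:22040001-22050000 to the bin of Hist1h4h, Hist1h2af and Hist1h3g at chr13:23530001-23540000, with 26, 16, 18, 23 and 11 contacts. M0[CTR] was highest and pIL-4 + IFNG lowest. The next longest, from the same histone bin to the neighbouring bin on the far side, had 18, 17, 17, 23 and 14 contacts, with IFNG highest. The anchors of the first of these pairs had 396 different 31-base words in common, so its counts are uncertain, while those of the second had none. The longest such loop elsewhere ran 1450 kb from the TSS bin of Adamts1, a secreted metalloprotease gene, at chr16:85800001-85810000, with 17, 13, 10, 11 and 10 contacts.

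A small number of anchors held many long loops. In each list 64.4 to 65.9% of long loop anchor bins had 1 partner, 7.47 to 7.90% had 5 or more, and the most was 35 to 45 partners. That most-connected bin was the Bcl6 TSS bin in the union of the lists, with 68 partners, all to its right between chr16:24480001 and chr16:25360000. Since Bcl6 (chr16:23965052-23988852) lies on the minus strand, these partners are upstream of the gene. It had 38, 42, 40, 35 and 45 long loops with 578, 620, 565, 533 and 705 contacts, and 15 of its loops were in all 5 lists. A predicted gene, Gm37419, starts in the same bin.

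The other bins with most partners were also directional. The bin chr4:55510001-55520000, 12.5 kb from the TSS of Klf4, had 42 partners to its right, with 16, 22, 17, 17 and 17 long loops and 215, 303, 243, 233 and 229 contacts. The bin chr16:92560001-92570000 between Clic6 and Runx1 had 47 partners to its right, with 23, 19, 19, 29 and 22 loops. The bin chr4:95000001-95010000, 20.9 kb from Mysm1, had 42 partners to its right, with 19, 25, 21, 26 and 31. The bin beside Plk2 had 38 partners to its right, with 17, 26, 16, 15 and 20 loops, highest in M2[IL-4]. The bin chr9:61860001-61870000 near Rplp1, a ribosomal protein gene, had 44 partners to its left, with 13, 16, 21, 18 and 24. The remaining 4 of the 10 lay at chr10:97310001-97320000, chr16:25260001-25270000, chr8:128540001-128550000 and the Gm5426 bin chr10:96130001-96140000, with 37 to 39 partners each, all on 1 side.

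Long loop anchors differed from those of shorter loops in genes and base composition. A protein-coding TSS lay in at least 1 anchor of 14.2% ± 0.567 (SD, n = 5 lists) of long loops, against 30.6% ± 0.226 of loops of 20 to 490 kb, a difference of -16.4 points with long loops lower in 5 of 5 lists (exact paired sign-flip test, two-sided, p = 0.063). That is the smallest p 5 lists can give, so 0.05 could not be reached, and the lists have many loops in common and are not independent samples. The GC content of the anchors was 43.2% against 45.8%, lower for long loops in 5 of 5 lists, with 41.9% over all autosomal bins. Soft-masked repeats covered 26.9% of the anchors in both span classes, a difference of 0.02 points (exact paired sign-flip p = 0.8125), which became -0.463 points when each anchor was weighted by contacts. Counted once each, the 16994 long loop anchor bins (7.09% of autosomal bins) held a TSS in 8.41%, near the 7.76% of all bins, while 15.6% of the anchor bins of 20 to 490 kb loops did.

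Facing CTCF matches were in 0.603% ± 0.058 (SD, n = 5 lists) of long loops and in 0.789% ± 0.047 of loops of 20 to 490 kb, and matches facing away were in 0.033% of long loops. Among loops with a match in both anchors, of which each list held 47 to 64 long ones, the matches faced each other in 72.6% of the long and 62.8% of the shorter loops, higher for long loops in 5 of 5 lists (exact paired sign-flip p = 0.063). In the 669 long loops called in all 5 lists, 11 had facing matches and 1 had matches facing away. Loops of 200 to 490 kb more often had a relay, another bin that looped to both anchors, at 9.35% against 7.40% of long loops, and this order held in 5 of 5 lists (exact paired sign-flip p = 0.063).

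**Figure D3:**
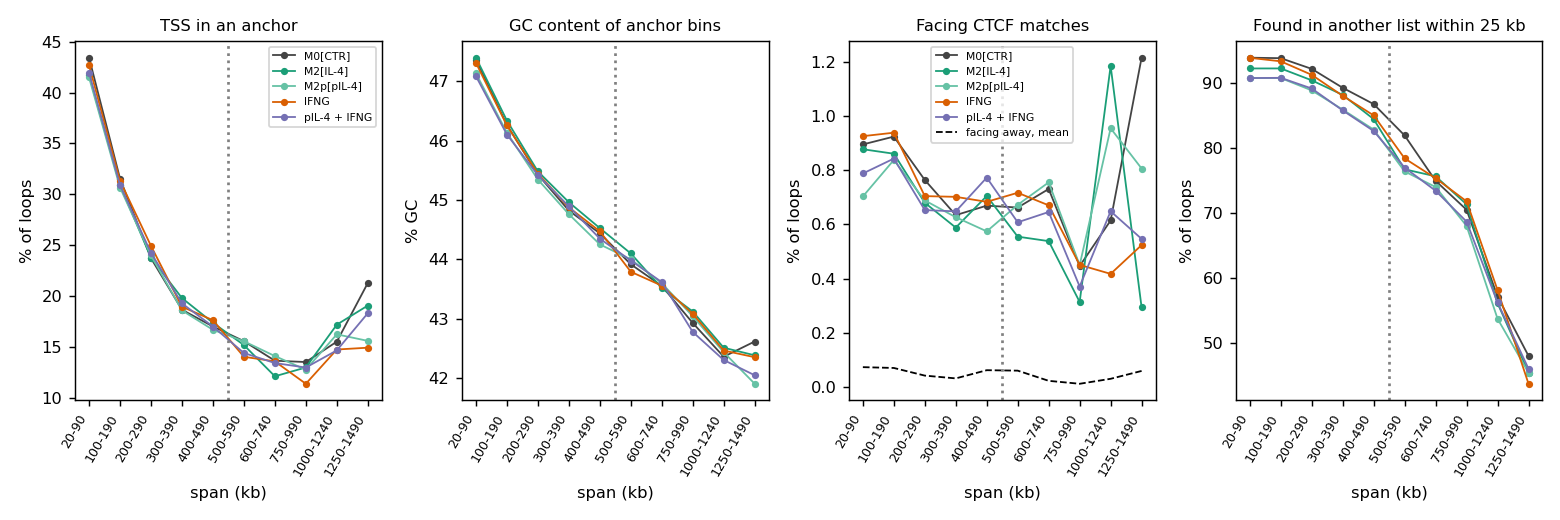
Share of loops with a protein-coding TSS in an anchor, GC content of anchor bins, share with facing CTCF matches (dashed, mean share facing away) and share found in another list within 25 kb, each in percent, in 10 span classes for the 5 lists. The classes are not drawn to scale and the dotted line marks 500 kb. In all lists the TSS share declined with span from class to class up to 740 kb, and GC content up to 1240 kb, with no step at 500 kb. Sharing, as the mean over the other 4 lists, declined from 100 kb on, and the TSS share of the longest loops was 14.9% or more.

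Most long loops were not found again at the same bins in another list, although nearby calls often were. Of the 22770 distinct long pairs, 16945 (74.4%) were in 1 list and 669 (2.94%) in all 5. For loops of 20 to 490 kb these shares were 52.4% and 10.3%. With both anchors allowed to lie within 25 kb, which is at most 2 bins, 71% ± 1.17 (SD, n = 5 lists) of long loops and 90.8% ± 1.43 of the shorter ones had a match in another list, a difference of -19.8 points, lower in 5 of 5 lists (exact paired sign-flip p = 0.063). Long loops have fewer contacts, with an upper quartile of 15 in every list. With 15 or more contacts asked of both classes the difference was -2.39 points. Contacts were also divided by the list's median at the same span. At 1 to 1.25 times that median, the mean share with a match was 72.3 to 74.8% for long and 91.3 to 94.0% for shorter loops. At 1.75 times or more these shares were 99.0 to 99.6% and 98.9 to 99.7%. The part of contacts in the difference was not tested.

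**Figure D4:**
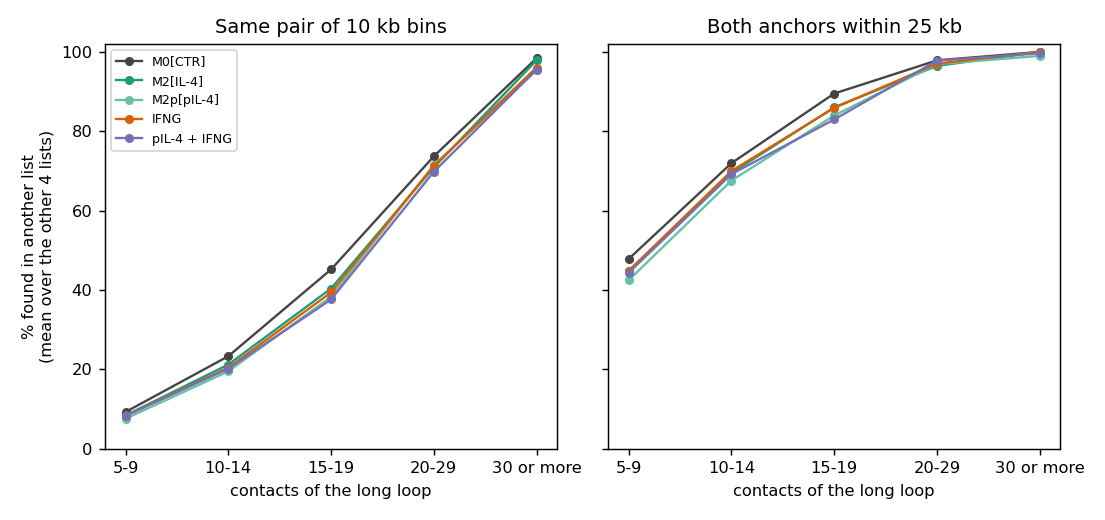
Share of long loops found in another list, as the mean over the other 4 lists in percent, by the contacts of the loop, at the same pair of bins (left) and with both anchors within 25 kb (right). In each of the 5 lists the share climbed with contacts, from 42.5 to 47.8% at 5 to 9 contacts to 99.0% or more at 30 or more contacts on the right.

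Sharing followed the contacts closely. As the mean over the other 4 lists, long loops with 5 to 9 contacts were found at the same bins in 7.60 to 9.27% of cases. For those with 30 or more contacts this was 95.3 to 98.4%. A long loop missing from a list was not called there, which is different from having no contact.

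The first comparison, M2[IL-4] against M0[CTR], asks what exposure to IL-4 does to chromatin contacts. Of the 6452 long loops of M2[IL-4], 1978 (30.7%) had no match within 25 kb in M0[CTR], where 13.5% of all autosomal loops of that list had none. In reverse, 1726 (28.8%) of the M0[CTR] long loops had no match in M2[IL-4], against 10.7% of all loops. After washout and rest, 2210 (31.1%) of the M2p[pIL-4] long loops had no match in M0[CTR] (14% of all) and 1594 (26.6%) of M0[CTR] had none in M2p[pIL-4] (8.82% of all). Between M2p[pIL-4] and M2[IL-4], 2135 (30.1%) had no match in M2[IL-4] (12.8% of all) and 1727 (26.8%) of M2[IL-4] had none in M2p[pIL-4] (10.0% of all). These comparisons have lists in common and are given side by side.

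IFNG for 3 h gave like shares. Of the IFNG long loops, 1956 (29.5%) had no match in M0[CTR] (12.9% of all), and 1670 (27.8%) of the M0[CTR] long loops had none in IFNG (11.9% of all). In primed cells, 2062 (28.7%) of the pIL-4 + IFNG long loops had no match in M2p[pIL-4] (11.4% of all) and 2073 (29.2%) of M2p[pIL-4] had none in pIL-4 + IFNG (11.3% of all). Priming before IFNG left 2095 (29.2%) of the pIL-4 + IFNG long loops without a match in IFNG (13.4% of all) and 1723 (26.0%) of IFNG without one in pIL-4 + IFNG (9.13% of all). All 12 shares of long loops lay between 26.0 and 31.1%, whichever lists were compared, and each was above the share over all loops of its list.

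Of the 1978 long loops in M2[IL-4] but not M0[CTR], 622 (31.4%, 95% Wilson interval 29.4 to 33.5) were called in M2p[pIL-4] after washout, against 46.8% of such loops of any span. Of the 1956 in IFNG but not M0[CTR], 643 (32.9%, 30.8 to 35) were called in pIL-4 + IFNG, against 50.2% of any span. For comparison, 551 (28.2%) of the latter were called in M2p[pIL-4], which had no IFNG.

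Few long loops followed the treatments as sets of lists. In all 3 lists exposed to IL-4 and no other, 126 of the M2[IL-4] long loops (1.95%) were called, against 1.44% of all its loops. In both lists with IFNG and no other, 192 of the IFNG long loops (2.90%) were called, against 1.48% of all. In both lists taken after washout and no other, 191 of the M2p[pIL-4] long loops (2.69%) were called, against 1.48%. In both lists never exposed to IL-4 and no other, 125 of the M0[CTR] long loops (2.08%) were called, against 0.595%. Many more were in a single list, 841, 959, 1167, 999 and 1101, or 14 to 16.4% of long loops against 3.59 to 4.91% of all.

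For the strongest long loops of these sets, the highest contacts within 25 kb are given for each list. The strongest of the IL-4-exposed lists alone was a loop of 570 kb ending 20.1 kb from Qk, which encodes an RNA-binding splicing regulator, with 20 contacts (M2[IL-4]), 17 (M2p[pIL-4]) and 21 (pIL-4 + IFNG). The second ran 590 kb from the TSS bin of Dis3l, a cytoplasmic exosome nuclease, at chr9:64340001-64350000 to Slc24a1, with 20, 18 and 17 contacts. The strongest of the IFNG lists alone lay far from any protein-coding TSS, 115 kb from Uaca and 255 kb from Rplp1, with 20 contacts without priming and 17 after it. The second of this set was a loop of 590 kb to the TSS bin of Ptpru, a receptor tyrosine phosphatase, at chr4:131830001-131840000, with 22 and 20 contacts. That bin had 5, 2, 4, 4 and 3 long loops, so it was an anchor in every list. The strongest of the washed-out lists alone ran 950 kb from chr10:96210001-96220000, 73.4 kb from Gm5426, to chr10:97160001-97170000 with 22 contacts before IFNG and 17 after it. Another of this set ran 610 kb from the TSS bin of St3gal1, a sialyltransferase, at chr15:67170001-67180000, with 35 contacts in M2p[pIL-4] against 14 in the primed IFNG list. The St3gal1 TSS bin had 0, 4, 10, 0 and 9 long loops, so M2[IL-4] without washout had some as well.

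Loops of a single list lay elsewhere. M0[CTR] alone had a loop of 1460 kb from the TSS bin of Hgf, hepatocyte growth factor, with 12 contacts, and M2[IL-4] alone had a loop of 560 kb from Ercc4, a DNA repair endonuclease gene, to Bfar with 22. M2p[pIL-4] alone had a loop of 1150 kb from the bin of Meig1 and Dclre1c with 14, and IFNG alone had a loop of 1120 kb between the Zfp981 and Zfp979 zinc finger genes with 14. pIL-4 + IFNG alone had a loop of 930 kb whose right end lay 133 kb from Cited2, a transcriptional coregulator, with 17. The lists without IL-4 had a loop of 1040 kb from Adra2a, an adrenergic receptor gene, to Gpam, with 13 contacts in M0[CTR] and 14 in IFNG.

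At long loops called at the same bins in both lists, contacts changed little as a body. Count ratios were scaled by the contacts at the 14041 autosomal bin pairs called in all 5 lists, and the median log2 ratio over shared long loops was 0.00 for M2[IL-4] over M0[CTR], -0.05 for M2p[pIL-4] over M0[CTR], -0.05 for M2p[pIL-4] over M2[IL-4], -0.04 for IFNG over M0[CTR], 0.02 for pIL-4 + IFNG over M2p[pIL-4] and 0.01 for pIL-4 + IFNG over IFNG. For M2[IL-4] over M0[CTR], 177 of 1667 shared long loops (10.6%) were 1.5-fold or more apart in either direction, against 3.60% of shared loops of all spans. For M2p[pIL-4] they were 167 of 1786 against M0[CTR] (9.35%, all spans 3.34%) and 180 of 1862 against M2[IL-4] (9.67%, all spans 3.33%). For IFNG over M0[CTR] they were 162 of 1711 (9.47%, all spans 3.42%). For pIL-4 + IFNG they were 200 of 1986 against M2p[pIL-4] (10.1%, all spans 3.50%) and 208 of 1908 against IFNG (10.9%, all spans 3.49%). The long loops have fewer contacts than the rest. Their squared scaled count differences averaged 0.488 to 0.510 of the value expected from counting alone, and those of shared 20 to 490 kb loops 0.634 to 0.669. Pairs that were low in 1 list and not called there are left out of this measure, so it cannot tell how much long loops vary between lists. Only loops that passed calling in both lists enter these ratios.

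The largest single ratios were taken among shared long loops with 40 or more contacts in both lists together. They often shrank or turned direction when the highest contacts within 25 kb were used. Whether contacts shifted between neighbouring bins was not tested. For M2[IL-4] over M0[CTR] the highest of 303 loops went from 13 to 31 contacts between bins 24.7 kb from Nrbf2, an autophagy gene, and 52.7 kb from Zfp365, a log2 ratio of 1.26 (95% interval 0.28 to 2.31), which was 0.64 with the highest contacts within 25 kb. The lowest, at chr10:21470001-21480000 beside the strongest loop of all, went from 34 to 16 contacts (log2 ratio -1.08), while the highest contacts within 25 kb were 80 and 87. For M2p[pIL-4] over M0[CTR] the highest and lowest of 333 loops shared the Depdc1b bin chr13:108340001-108350000. Its loop to chr13:109200001-109210000 in Pde4d, a cyclic AMP phosphodiesterase gene, went from 14 to 30 contacts (1.05), and its loop to the next bin went from 32 to 17 (-0.96), while with the highest contacts within 25 kb both ratios were -0.14.

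For M2p[pIL-4] over M2[IL-4] the highest of 360 loops, from Maml3 to a bin 18.3 kb from Foxo1, a forkhead factor of the insulin pathway, went from 18 to 44 contacts (log2 ratio 1.24, 95% interval 0.42 to 2.11), with 30, 34 and 35 in M0[CTR], IFNG and pIL-4 + IFNG. M2[IL-4] was thus the low list at this loop, and with the highest contacts within 25 kb the ratio was 0.88. The lowest lay between Acoxl and a bin beside Spdye4c, at 29 and 14 (-1.10), and was -0.10 with the highest contacts within 25 kb. For IFNG over M0[CTR] the highest of 330, from Mtfr2 to a bin 12.5 kb from Ahi1, a cilium gene, went from 11 to 29 (1.36), and was 0.09 with the highest contacts within 25 kb. The lowest, between Atad1 and Rnls, went from 32 to 16 (-1.04), and turned to 0.19 with the highest contacts within 25 kb.

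For pIL-4 + IFNG over M2p[pIL-4] the highest of 395 loops, from Fastkd2 to a bin 82.6 kb from Creb1, the cyclic AMP response factor, went from 14 to 35 contacts (log2 ratio 1.34, 95% interval 0.41 to 2.35), against 19, 18 and 18 in M0[CTR], M2[IL-4] and IFNG, and the ratio was 0.50 with the highest contacts within 25 kb. The lowest, next to the Enc1 loop at chr13:97220001-97230000, went from 27 to 13 (-1.04), and was -0.04 with the highest contacts within 25 kb. For pIL-4 + IFNG over IFNG the highest of 382, between bins 54.9 kb from Nrn1 and 25.2 kb from Ly86, which encodes the partner of the receptor CD180, went from 14 to 30 (1.11), and was 0.27 with the highest contacts within 25 kb. The lowest, near Mtfr2 and Ahi1, went from 27 to 13 (-1.05), and turned to 0.17 with the highest contacts within 25 kb. These intervals compare 2 lists each and were taken at the extremes, so they are descriptions.

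Genes at long loop anchors were counted for gene lists and for all 20807 autosomal protein-coding genes, of which 7.80% had their TSS in a long loop anchor bin in any list and 36.4% had a long loop within 100 kb. Developmental regulators, transcription factor genes of embryonic patterning that Polycomb proteins silence in most adult cells, had 9 of 40 TSSs in an anchor bin and 57.5% within 100 kb. Macrophage identity genes had 3 of 30 and 43.3%, and markers of other blood cells had 1 of 29 and 31%. IL-4-induced genes had 4 of 29 and 24.1%, and IFNG-induced genes had 1 of 29 and 27.6%. Housekeeping genes had 0 of 30 and 16.7%, and the genes that the study names at its loops, a list drawn from these samples, had 2 of 13 and 46.2%.

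The number of long loops within 100 kb per gene, averaged over a list, was carried by few members. For the IL-4-induced genes it was 2.69, 4.90, 4.00, 3.83 and 4.28, against 0.900, 0.976, 1.04, 0.981 and 1.04 over all genes, and Klf4 and Myc held most of the loops. For the IFNG-induced genes it was 0.10, 0.14, 0.21, 0.55 and 0.31, low in every list. For the macrophage identity genes it was 3.37, 3.77, 3.53, 4.40 and 4.73, and for the developmental regulators 2.08, 2.48, 2.80, 2.65 and 2.68. For the markers of other blood cells it was 0.28, 0.17, 0.41, 0.21 and 0.14, and for the housekeeping genes it stayed at 0.20 or less.

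**Figure D5:**
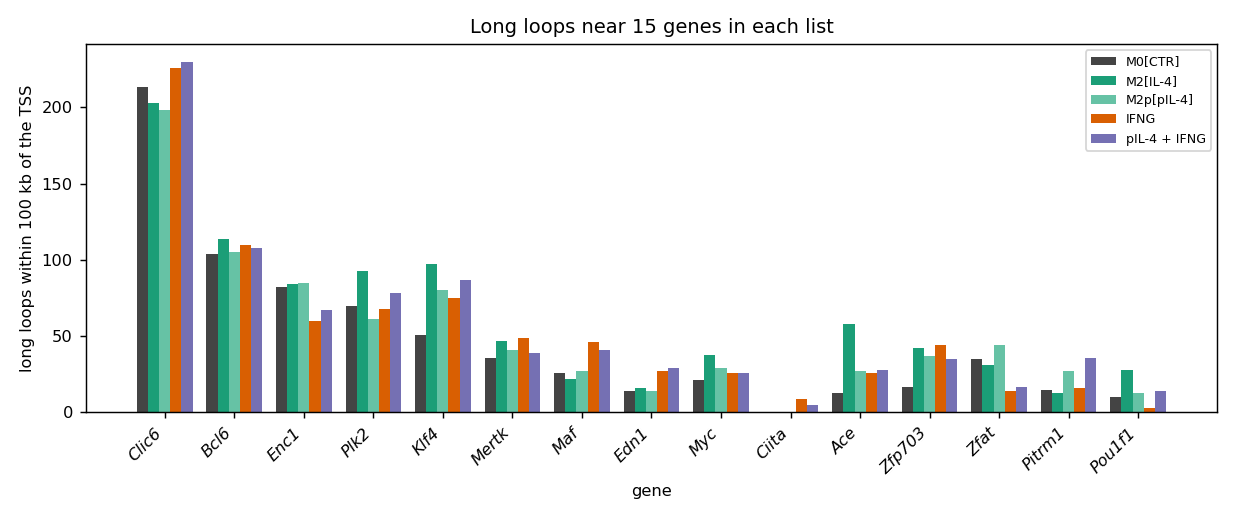
Bars give the number of long loops with an anchor within 100 kb of the TSS of 15 genes in the 5 lists. Of these, Clic6, next to Runx1, had most in every list at 198 to 230. Klf4 stood lowest in M0[CTR] at 51, and Ciita had bars in the 2 lists with IFNG only.

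Klf4, a zinc finger factor that IL-4 induces through STAT6, had the most long loops of the IL-4-induced genes. Within 100 kb of its TSS (gene at chr4:55527143-55532466, minus strand) lay 51, 97, 80, 75 and 87 long loops with 616, 1236, 1079, 931 and 1010 contacts. M0[CTR] was the lowest list and M2[IL-4] the highest, 1.90 times M0[CTR], and IFNG without IL-4 was 75. All 390 calls ran upstream of the gene to chr4:56000001-56820000, while loops of 20 to 490 kb near Klf4 numbered 15, 19, 25, 17 and 20. With touching bin pairs merged the ratio of M2[IL-4] to M0[CTR] was 1.42, and among loops with 15 or more contacts it was 22 against 8. The strongest, from chr4:55510001-55520000 to chr4:56220001-56230000, ran the other way, with 38, 27, 21, 24 and 26 contacts and M0[CTR] highest. So M0[CTR] held fewer called pairs in this region and more contacts at its main pair. The Klf4 TSS bin itself had 1, 4, 4, 2 and 3 long loops.

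Myc, a growth-promoting factor also known to respond to IL-4, had 21, 38, 29, 26 and 26 long loops with 211, 398, 303, 251 and 284 contacts, highest in M2[IL-4], and 139 of its 140 calls ran downstream of the gene (chr15:61985391-61990374, plus strand). The merged ratio of M2[IL-4] to M0[CTR] was 1.41, and no bin pair near Myc was in all 5 lists. Socs2, a suppressor of cytokine signalling, had 3, 6, 7, 7 and 7 long loops beside 97 to 143 of 20 to 490 kb. Tfec, a MiT-family factor, had 0, 1, 0, 2 and 2.

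Among macrophage identity genes, Maf, a lineage factor, had 26, 22, 27, 46 and 41 long loops with 362, 343, 381, 650 and 575 contacts, so both lists with IFNG were above the other three. IFNG was 1.77 times M0[CTR] and pIL-4 + IFNG was 1.52 times M2p[pIL-4], and with touching pairs merged these were 2.15 and 1.54. The loops of 20 to 490 kb near Maf numbered 20, 15, 19, 19 and 25. Zeb2, which encodes a repressor needed for macrophage identity, had 8, 16, 9, 6 and 16, and Runx1 had 7, 4, 5, 5 and 19, highest in pIL-4 + IFNG. Mertk, named after its values were seen, had 36, 47, 41, 49 and 39, all 212 to the left of the gene.

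Ciita, the transactivator of MHC class II genes and one of the IFNG-induced genes, was chosen after its values were seen. Within 100 kb of its TSS lay 0, 0, 0, 9 and 5 long loops, with 155 contacts in IFNG and 80 in pIL-4 + IFNG. All ran to chr16:11060001-11130000, with a median span of 520 kb and none over 560 kb. The strongest had 23 contacts in IFNG (chr16:10570001-10580000 to chr16:11110001-11120000), and pIL-4 + IFNG had 19 at the next bin. The gene lies at chr16:10480059-10528418 on the plus strand, so the left anchor of this loop is past its end. No long loop was called at the Ciita TSS bin itself in any list. Loops of 20 to 490 kb near Ciita numbered 54, 68, 59, 64 and 69, with no such split.

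Edn1, the gene of the vasoconstrictor peptide endothelin and in the list of the study's genes, had 14, 16, 14, 27 and 29 long loops with 216, 268, 234, 466 and 478 contacts, all 100 to chr13:41630001-41770000 on its left. Both lists with IFNG lay above the other three, at 1.93 times M0[CTR] for IFNG and 2.07 times M2p[pIL-4] for pIL-4 + IFNG. With touching pairs merged the ratios were 1.00 and 1.29. The number of merged groups thus did not differ between IFNG and M0[CTR], while pIL-4 + IFNG stayed above M2p[pIL-4]. The cause was not tested. Other blood cell markers showed a single gene at a TSS bin, the B cell factor gene Ebf1, with 2, 0, 4, 1 and 0 long loops nearby.

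Developmental regulators had long loops in all lists. Hoxa13, at the end of the Hoxa cluster, had 24, 24, 30, 29 and 29 within 100 kb, and its TSS bin had 1, 3, 4, 2 and 4. Emx2, a homeobox gene of the forebrain and urogenital tract, had 4, 11, 11, 7 and 11, all downstream to chr19:60070001-60330000, and no loop of 20 to 490 kb in any list. Tbx3, a T-box gene, had 13, 13, 9, 11 and 10 long loops, and loops of 20 to 490 kb appeared in IFNG alone, where there were 2. En1 had 0, 3, 2, 4 and 2 long loops, and Nkx2-2, Nkx6-1, Gata4, Hoxd13 and Isl1 had 4 or fewer in any list.

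Other genes beside strong or much-connected anchors had long loops in every list. Bcl6 had 104, 114, 105, 110 and 108 within 100 kb with 1219 to 1370 contacts, and 540 of 541 calls ran upstream. Clic6, a chloride channel-like gene next to Runx1, had 213, 203, 198, 226 and 230. Plk2 had 70, 93, 61, 68 and 78, highest in M2[IL-4], and Enc1 had 82, 84, 85, 60 and 67, lower in both lists with IFNG. Foxo1 had 53, 54, 51, 64 and 59, with calls on both sides of the gene, 104 to the right and 177 to the left.

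Some genes were named after their values were seen, as those with the largest difference between lists among genes with 40 or more long loops nearby over both lists. Ace, which encodes angiotensin-converting enzyme, had 13, 58, 27, 26 and 28 long loops with 217, 942, 421, 423 and 466 contacts, all to chr11:105250001-105390000, so M2[IL-4] was 4.46 times M0[CTR]. The count of M2p[pIL-4] was 0.466 times that of M2[IL-4]. With touching pairs merged these ratios were 1.60 and 1.38, the latter on the other side of 1. The strongest Ace loop, from chr11:105340001-105350000 to chr11:105910001-105920000, was in all lists with 25, 25, 31, 31 and 29 contacts. Mrc2 (chr11:105292643-105351139) lies in the partner region and had 16, 61, 30, 28 and 34 long loops within 100 kb. Cyb561, next to Ace, had 14, 58, 29, 28 and 29, so the pattern is not particular to Ace.

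Zfp703, a zinc finger gene, had 17, 42, 37, 44 and 35 long loops, lowest in M0[CTR], but with touching pairs merged M2[IL-4] was 0.571 and M2p[pIL-4] 0.714 times M0[CTR]. Zfat, a zinc finger gene of lymphocytes, had 35, 31, 44, 14 and 17, lower in both lists with IFNG. IFNG was 0.400 times M0[CTR] and pIL-4 + IFNG was 0.386 times M2p[pIL-4] at Zfat, and 0.370 and 0.484 with touching pairs merged. Pitrm1, a mitochondrial peptidase gene, had 15, 13, 27, 16 and 36, higher in both lists taken after washout. Pou1f1, a pituitary factor gene, had 10, 28, 13, 3 and 14, highest in M2[IL-4].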

How the data were processed

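Hi-C was run on 10 samples in 5 groups of 2, grouped by sample title. Per the methods, reads were processed with nf-core/hic (HiC-Pro, bowtie2) against mm10 (GRCm38), and the submitters' processing notes also name FastQC, Juicer and HOMER. The authors deposited 1 loop list per group with a whole-number count of contacts for each pair of 10 kb bins, not normalized and with replicates merged. Their methods describe calling at 25 kb, so the caller and threshold behind these 10 kb lists are not given in the sources used here. Lists without a stated minimum favour deep or strong pairs, and sequencing depth per sample was not analysed here.

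From the lists, autosomal loops of 500 kb or more were taken and compared with loops of 20 to 490 kb of the same list. Loops matched with both anchors within 25 kb. Shares carry 95% Wilson intervals, counts exact Poisson intervals and count ratios conditional binomial intervals scaled by contacts at pairs called in all 5 lists. Genes came from GENCODE M21. Loops under 20 kb were kept in the totals over all autosomal loops. Named were genes at the 10 strongest and 5 longest loops in all lists, the 10 most-connected bins, the extremes of count ratio, the strongest loops of single lists or sets, and gene list members with a TSS in an anchor bin. Some genes that this rule names are not reported here. The members and gene lists were chosen with earlier results of these data known. Of 30 IL-4-induced, IFNG-induced and other blood genes each, 29 were on the autosomes and matched. Scripts ran under Python 3.11.15 (matplotlib 3.10.9, scipy 1.17.1, pandas 2.3.3, numpy 2.4.6) and were tested on simulated data. Alternatives varied span, matching, scaling, contacts, merging of touching pairs and list length.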

Additional observations from a re-analysis of the deposited data

Results flagged for a closer look

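Chromosome X lies outside the autosomal comparisons, and long loops were called there in every list. The lists of M0[CTR], M2[IL-4], M2p[pIL-4], IFNG and pIL-4 + IFNG had 22, 25, 20, 16 and 22 of them, out of 142 to 195 loops of any span on that chromosome.

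Near Cd40, a costimulatory receptor gene of the IFNG-induced list, IFNG gave opposite differences of small counts without and with priming. Long loops within 100 kb went from 1 in M0[CTR] to 3 in IFNG and from 5 in M2p[pIL-4] to 1 in pIL-4 + IFNG, a difference of -4 in the primed cells. The difference between the pairs of lists was not tested.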

How the results depend on the processing

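No paired analysis was possible because the deposited lists merge both samples of a group, and no replicate could be left out either. Counting depth limits single loops. The median long loop had 12 or 13 contacts, and loops absent from a list were only not called there.

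The number of long loops in M0[CTR], M2[IL-4], M2p[pIL-4], IFNG and pIL-4 + IFNG was 9290, 9998, 11106, 10132 and 11060 at 400 kb or more, 2549, 2611, 2884, 2877 and 3026 at 750 kb, and 980, 1016, 1105, 1101 and 1137 at 1000 kb. It was 3320, 3472, 3848, 3541 and 3876 with touching pairs merged, and 1691, 1957, 2228, 2086 and 2088 with 15 or more contacts. The ratio of M2[IL-4] to M0[CTR] was 1.02 at 750 kb, 1.04 at 1000 kb, 1.16 with 15 or more contacts and 1.01 with equal list lengths. For M2p[pIL-4] it was 1.13 at 750 kb and at 1000 kb, 1.32 with 15 or more contacts, and 0.975, below 1, with equal list lengths. For IFNG it was 1.23 with 15 or more contacts, and for pIL-4 + IFNG it was 0.986, below 1, with equal list lengths.

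The share of long loops without a match is given for M2[IL-4] in M0[CTR], M2p[pIL-4] in M0[CTR], M2p[pIL-4] in M2[IL-4], IFNG in M0[CTR], pIL-4 + IFNG in M2p[pIL-4] and pIL-4 + IFNG in IFNG. At the same bins it was 74.2, 74.8, 73.8, 74.2, 72.3 and 73.4%, and within 50 kb it was 17.2, 17.8, 16.9, 16.8, 15.4 and 15.6%. At 400 kb or more it was 25.9, 26.3, 25.3, 25, 24.2 and 25%, at 750 kb 37.5, 39.2, 38.6, 36.3, 36.3 and 36.5%, and at 1000 kb 50.2, 50.05, 48.9, 47.5, 45 and 47.1%. With 15 or more contacts it was 12.4, 13.1, 12.6, 12.4, 12.55 and 11.8%. Of the M0[CTR] long loops, 3460 had a match within 25 kb in every other list, against 669 pairs at the same bins.

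In the same order of comparisons, shared long loops 2-fold or more apart numbered 10, 14, 10, 8, 13 and 13, and those 1.5-fold apart by the highest count within 25 kb numbered 99, 74, 77, 87, 101 and 96. Without scaling the median log2 ratio was 0 in every comparison, so the scaled medians given above hold the scaling alone. With the highest count within 25 kb the scaled median of M2p[pIL-4] over M2[IL-4] was 0.00298 and that of M2p[pIL-4] over M0[CTR] was 0.03, both in place of -0.05. Weighting anchors by contacts turned the repeat difference to -0.463 points.

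By the highest count within 25 kb, 4 single loops turned direction. These were the lowest ratio of M2[IL-4] over M0[CTR] (0.12), the highest of M2p[pIL-4] over M0[CTR] (-0.14), the lowest of IFNG over M0[CTR] (0.19) and the lowest of pIL-4 + IFNG over IFNG (0.17). With touching pairs merged, an alternative chosen after seeing the data like the others tried near single genes, the ratio turned near Zfp703 for M2[IL-4] (0.571) and M2p[pIL-4] (0.714) over M0[CTR] and near Ace for M2p[pIL-4] over M2[IL-4] (1.38). The cause of these changes was not tested.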
